A study of Mus musculus with 22 samples.

Results

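Cholesterol and fatty acid synthesis was followed through 32 genes of the pathway in cultured mouse cerebellar granule cells. The genes were listed by their role, and each was matched by symbol to the arrays. Of the 32 genes 31 were measured (6 mevalonate steps, 11 squalene and sterol steps, 6 genes of Srebp control and sterol transfer, and 8 fatty acid steps), among 10771 genes tested. Acat2, a thiolase of the listed mevalonate steps, had no probe set with its name in the annotation used here. The brightest probe set stood for a gene, and all 31 passed the filter on dim genes, which asked for a mean log2 signal of at least 6.44 over all arrays.

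The study compared gene expression on 22 Affymetrix arrays in 3 separate experiments, each with its own control. Granule cells came from cerebella of pups at postnatal day 7, and the labels call the strain C56Bl6/J while the study's methods name C57BL/6N. Cultured neurons labelled Chd7 mutant (n = 4) were set against neurons labelled wild type (n = 4), both without treatment. In the second experiment cells were exposed for 12 h to 10 µM ICRF-193, which blocks DNA topoisomerases of type II (n = 4), or to its solvent DMSO alone (n = 4). In the third, cells cultured with an agent labelled Smo2 (n = 3) were compared with control cells (n = 3), and the labels of these cells and of the ICRF-193 experiment name no mutation. For the mutant neurons of this comparison the study names homozygotes in which Cre under the Atoh1 promoter, active in the granule lineage, deletes floxed Chd7 alleles (Atoh1-Cre::Chd7 f/f), and for the controls the floxed alleles alone (Chd7 f/f). For the last experiment it describes a Smoothened agonist, which drives hedgehog signalling, but whether Smo2 stands for that compound is not stated in the labels.

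Cholesterol is built from acetyl-CoA through mevalonate, isoprenoid units and squalene, which is closed to lanosterol and then trimmed to the final sterol. The transcription factors Srebf2 and Srebf1 switch on most enzymes of sterol and fatty acid synthesis. They leave the endoplasmic reticulum with the escort protein Scap when sterols are low, while Insig1 and Insig2 hold them back when sterols are high. Neurons and glia of the brain make their own cholesterol, since lipoproteins of the blood do not cross into it, and hedgehog signalling itself needs sterols, both to modify its ligand and to activate Smoothened.

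The proximal promoters of called genes with the largest changes are shown first, since most of these genes are known targets of Srebp. RefSeq windows (GRCm38.p6, 250 bases before to 50 bases after a transcript start) were matched for 25 of the 32 genes, in 33 windows. Below are the 250 bases before the start, 5′ to 3′ on the strand of the gene, with CCAAT boxes and sterol regulatory elements on either strand in capitals (a CCAAT box on the other strand reads ATTGG). Hmgcs1 comes first, for its window with the full sterol element, and the others follow by the size of their largest change in any comparison. For a gene with several windows 1 with most marked motifs is shown. Srebf1 has another with as many, a CCAAT box at -30.
Hmgcs1, chr13:119690101-119690350, plus strand: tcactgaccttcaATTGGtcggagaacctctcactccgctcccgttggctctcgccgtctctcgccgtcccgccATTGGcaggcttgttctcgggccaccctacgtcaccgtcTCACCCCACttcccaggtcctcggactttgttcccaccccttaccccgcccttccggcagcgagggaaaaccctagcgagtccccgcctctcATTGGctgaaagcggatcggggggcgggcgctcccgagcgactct
Srebf1, chr11:60222582-60222831, minus strand: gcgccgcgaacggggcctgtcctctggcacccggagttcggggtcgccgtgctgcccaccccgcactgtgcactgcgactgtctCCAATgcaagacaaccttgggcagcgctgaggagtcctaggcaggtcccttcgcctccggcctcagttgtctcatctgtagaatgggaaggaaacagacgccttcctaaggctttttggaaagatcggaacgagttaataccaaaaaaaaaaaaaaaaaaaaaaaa
Tm7sf2, chr19:6067851-6068100, minus strand: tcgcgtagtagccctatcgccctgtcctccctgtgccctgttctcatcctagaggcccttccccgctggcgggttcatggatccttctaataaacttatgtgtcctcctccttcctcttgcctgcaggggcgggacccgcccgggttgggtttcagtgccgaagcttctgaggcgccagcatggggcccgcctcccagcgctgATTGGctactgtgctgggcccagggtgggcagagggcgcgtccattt
Pmvk, chr3:89454291-89454540, plus strand: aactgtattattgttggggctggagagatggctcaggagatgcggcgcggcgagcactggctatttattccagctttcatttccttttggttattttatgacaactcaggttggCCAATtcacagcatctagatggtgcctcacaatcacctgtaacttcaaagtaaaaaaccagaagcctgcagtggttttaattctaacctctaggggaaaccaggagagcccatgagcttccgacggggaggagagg
Mvd, chr8:122443423-122443672, minus strand: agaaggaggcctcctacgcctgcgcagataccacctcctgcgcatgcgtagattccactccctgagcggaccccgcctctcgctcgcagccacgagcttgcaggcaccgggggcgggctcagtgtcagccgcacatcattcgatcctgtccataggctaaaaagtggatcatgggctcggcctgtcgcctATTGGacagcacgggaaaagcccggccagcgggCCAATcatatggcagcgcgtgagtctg
Lss, chr10:76531355-76531604, plus strand: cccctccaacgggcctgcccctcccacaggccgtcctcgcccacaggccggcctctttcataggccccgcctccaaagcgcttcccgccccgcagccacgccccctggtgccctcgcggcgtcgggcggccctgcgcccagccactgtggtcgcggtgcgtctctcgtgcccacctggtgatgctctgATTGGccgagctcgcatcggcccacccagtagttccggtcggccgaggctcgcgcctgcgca

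A CCAAT box, the site of the factor NF-Y that works with Srebp at sterol promoters, was found in 20 of the 25 genes (80.0%) and in 41.1% of all 27025 genes with a window. In Mvd a pair lay at -60 and -27 bases from the start, in Lss one lay at -62 and in Tm7sf2 one at -47. The sterol element TCACNCCAC was in 1 of the 33 windows (3.03%) and in 1.24% of all 32851 windows. That one was Hmgcs1, the synthase that makes HMG-CoA, at -137. Its shorter form CACNCCAC, which every full element also holds, was found in 3 of the 33 windows (9.09%), those of Hmgcs1, Insig1 (at -9) and Acat2 (at -181 and -53), and in 6.24% of all windows. GGGCGG, the GC box, was in 75.8% of the 33 windows (35.7% of all), and the E-box CACGTG in 18.2% (7.15% of all). All motifs were read on both strands, and a match describes the letters of the window, not a site in use.

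**Figure D1:**
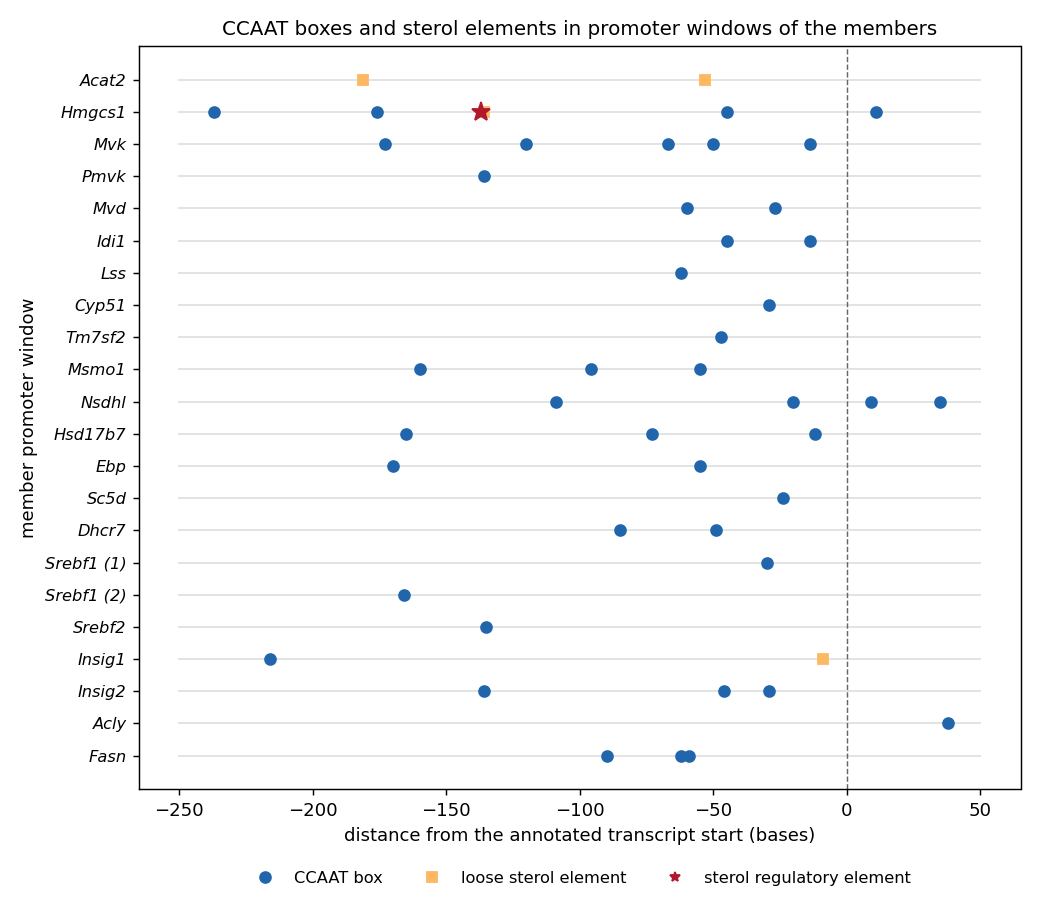
Positions of CCAAT boxes (circles), the short sterol element (squares) and the full one (star) in promoter windows of the listed genes, with distance from the annotated transcript start in bases on the x axis and 1 grey line per window that holds at least 1 of them. Hmgcs1 carries the full element, at -137, and 20 genes carry a CCAAT box.

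Before the results, some facts of the arrays bear on what follows. Of the Chd7 probe sets the dimmer one had 8.99 to 9.98 in mutant and 11.27 to 11.72 in wild type control arrays (limma adjusted p = 0.00333 over all probe sets), while the brighter one overlapped (11.37 to 11.86 against 11.74 to 12.01, adjusted p = 0.298), and where they lie relative to the deleted part was not known. In the Chd7 and ICRF-193 experiments the arrays of replicates 1 and 2 resembled each other, and so did those of replicates 3 and 4, so values are given per set where the sets differ. Granule lineage markers were measured for 7 of 8 genes, with Pax6 and Neurod1 bright in every group and Gabra6, a marker of mature granule neurons, below the filter. Of these 7, 1 fell in Chd7 mutant arrays and 0 rose (median change -0.14). The summed signal of all 8 was 72381 to 79786 there, against 83247 to 84905 in control arrays. Summed signals cover all markers found on the arrays, also those below the filter, while calls and medians cover those that passed it. In Chd7 mutant arrays the summed signal of 9 oligodendrocyte markers was 17442 to 24366, against 5607 to 14049 in control arrays (1 of 8 higher, median change 1.10). That of 8 astrocyte markers was 8066 to 35654 against 6537 to 18033 (1 of 8 higher, median 0.67). Glia synthesise much cholesterol, and fewer cells of a type and less RNA per cell cannot be told apart in such samples. Markers of fibroblasts, pericytes and endothelium moved the same way (2 of 6 higher, summed signal of 9 markers from 5759 to 11631 against 3016 to 6082). So did those of dividing cells (2 of 7 higher, 9382 to 14824 against 6714 to 9313). Of 5 microglia markers above the filter 0 were called (median -0.92), and of 4 Purkinje cell and interneuron markers 0 (median -0.07). The mean log2 signal of the Y-linked genes was 6.81 and 6.95 in mutants 1 and 2 and 4.23 and 4.00 in mutants 3 and 4, against 8.38 to 9.03 in control arrays. In the ICRF-193 experiment it was 9.47 to 9.60 in replicates 1 and 2 and 8.33 to 8.56 in replicates 3 and 4, so it split with the sets there too. The part of these other cells and of sex in the mutant results was not tested.

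In Chd7 mutant neurons 5 of the 31 genes fell and 0 rose, where 3.83% of all genes fell and 5.07% rose (limma, Benjamini-Hochberg over all genes, adjusted p under 0.05, used for every call). At an unadjusted p under 0.05 limma gave 13 lower and 2 higher, beside 12.2% and 13.9% of all genes. The 5 were Hmgcs1, Mvd, Nsdhl and Dhcr7, enzymes of cholesterol synthesis, and Fasn, the fatty acid synthase. The 17 sterol enzymes had a median change of -0.31 on the log2 scale, against 0.00 for all genes, and 15 of them had a negative change. Over all 31 genes 22 had a negative change (48.8% of all genes did), and the mutant arrays lay wholly below the controls for 11 (9.19% of all genes) and wholly above for 0 (10.4%). With each array centred on its median 5.11% of all genes fell and 3.63% rose, and 3 of the 31 fell. With the set of replicates as a block 16 of the 31 fell and 0 rose (9.38% and 12.6% of all genes). When the 2 arrays of a set were averaged to 1 sample in that fit, 0 of the 10771 genes passed in limma, while at an unadjusted p under 0.05 11 of the 31 were lower and 0 higher, beside 7.34% and 11.1% of all genes.

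**Figure D2:**
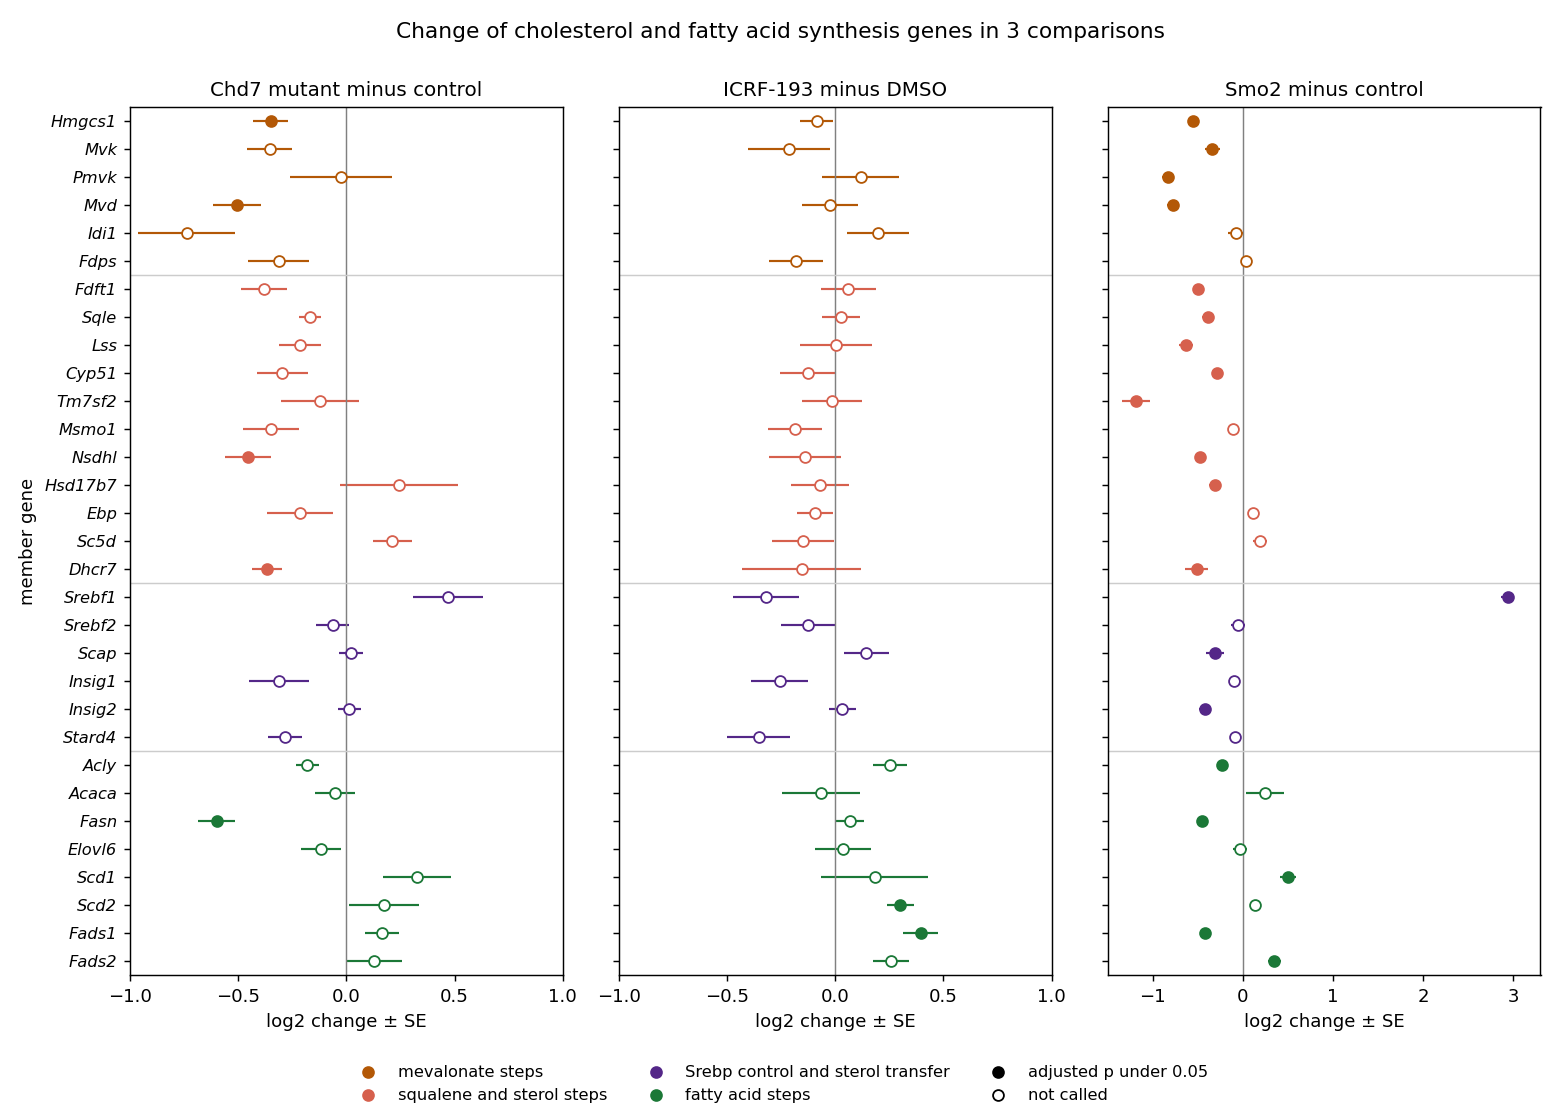
Log2 change ± SE of each gene in the 3 comparisons, grouped by role from the mevalonate steps at the top to the fatty acid steps at the bottom, with filled circles for an adjusted p under 0.05 (limma) and open circles for the rest. In the mutant 5 genes were called lower, with ICRF-193 2 were called higher, and with Smo2 17 were lower and 3 higher, Srebf1 by 2.94. The third panel has a wider x axis.

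Fasn, which builds palmitate, had log2 signals of 12.14, 12.27, 11.91 and 11.94 in control replicates 1 to 4 and of 11.45, 11.49, 11.45 and 11.47 in the mutants. The mutant arrays lay close together and all below the lowest control. The change was -0.60 ± 0.09 (SE, n = 4, limma adjusted p = 0.0054), a 1.52-fold decrease, and it remained called without any 1 array (adjusted p up to 0.0213).

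Mvd, which decarboxylates mevalonate diphosphate to the first isoprenoid unit, had 10.69, 10.67, 10.30 and 10.34 in controls and 10.14, 10.01, 9.90 and 9.93 in mutants. All mutants were below all controls, and the set of replicates 3 and 4 was lower in both genotypes. It fell by 0.50 on the log2 scale (SE 0.11, n = 4, limma adjusted p = 0.0285), and the call was lost without control 1 or 2 or mutant 2, 3 or 4 (adjusted p up to 0.0744). Of the 2 Mvd probe sets 1 passed when every probe set was fitted, and the other had a change of -0.37.

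Nsdhl removes methyl groups from the sterol ring after lanosterol. Its log2 signals were 11.74, 11.82, 11.57 and 11.57 in controls and 11.32, 11.43, 11.14 and 11.01 in mutants, again without overlap. The change was -0.45 ± 0.11 (SE, n = 4, limma adjusted p = 0.0372), and of the 8 arrays only mutant 2 could be left out without losing the call (adjusted p up to 0.0983).

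Dhcr7, the last reductase on the way to cholesterol, had 10.46, 10.37, 10.45 and 10.63 in controls and 10.16, 10.14, 10.06 and 10.08 in mutants. The lowest control was above the highest mutant. It fell by 0.37 (SE 0.07, n = 4, limma adjusted p = 0.0162) and remained called without any 1 array (adjusted p up to 0.0459), but not with all 22 arrays in 1 fit or from replicates 1 and 2 alone (adjusted p up to 0.251 over all alternatives). Hmgcs1 had 14.49, 14.41, 14.56 and 14.48 in controls and 14.29, 14.23, 14.02 and 14.00 in mutants, also without overlap. It fell by 0.35 (SE 0.08, n = 4, limma adjusted p = 0.0358), and with the replicate number taken as a block the adjusted p was 0.0554. Its 5 bright probe sets had changes from -0.84 to -0.22, and 4 of them passed. The call of the brightest was lost without any 1 control or without mutant 3 or 4 (adjusted p up to 0.0931).

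**Figure D3:**
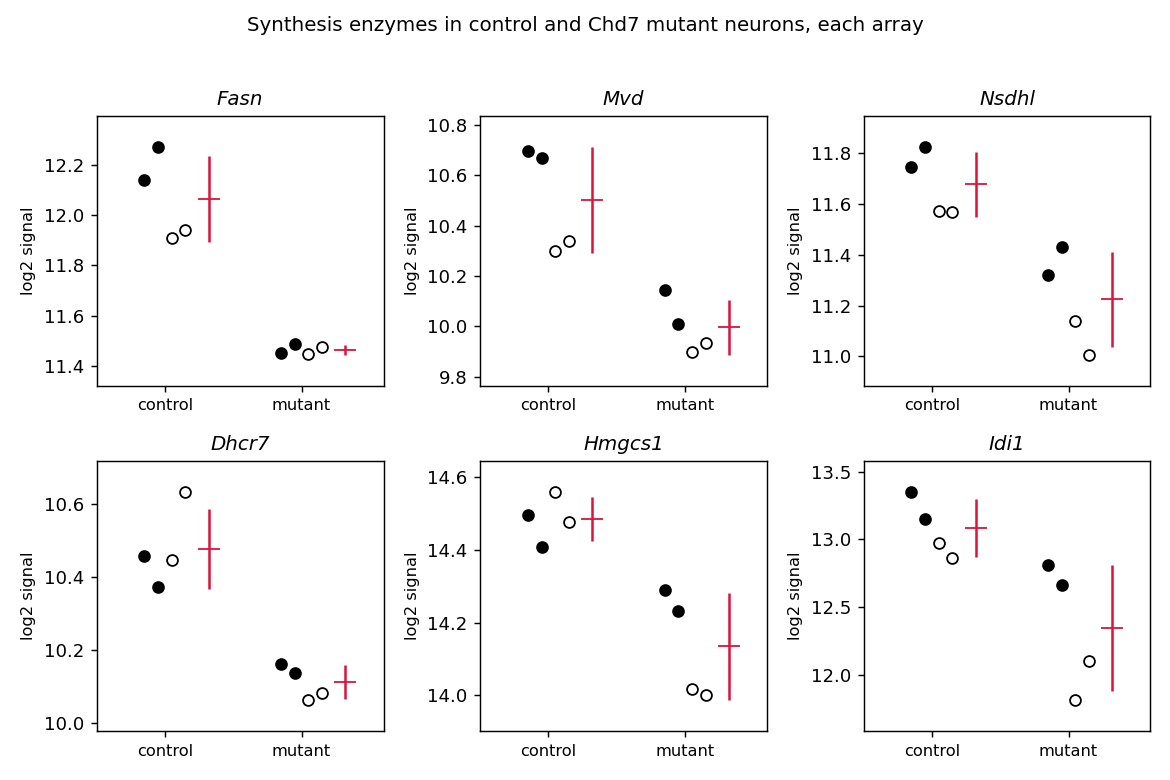
Log2 signal of 6 enzymes on each control and Chd7 mutant array, with filled circles for replicates 1 and 2, open circles for replicates 3 and 4, and in red the mean (dash) with its SD (bar, n = 4). No mutant array reaches the lowest control in any of the 6, and in Idi1 mutants 3 and 4 (11.81 and 12.10) lie lowest.

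Idi1, which interconverts the isoprenoid units, had the most negative change of the 31 genes without a call (-0.74 ± 0.22, SE, n = 4, limma adjusted p = 0.0790) and is described for that reason. Its controls had 13.35, 13.15, 12.98 and 12.86 and its mutants 12.81, 12.66, 11.81 and 12.10. The groups did not overlap, and the change was -0.51 in replicates 1 and 2 and -0.96 in replicates 3 and 4. With the replicate number as a block Idi1 passed (adjusted p = 0.0224), as did Fdft1, the squalene synthase (-0.38, adjusted p = 0.0262 with the block), and Msmo1, a sterol methyl oxidase (-0.35, adjusted p = 0.0439 with the block). In that fit 7 of the 31 genes fell and 0 rose, beside 5.15% and 7.95% of all genes.

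Other sterol enzymes were not called in the mutant. Mvk had -0.35 (limma adjusted p = 0.0714), Fdps -0.31 (adjusted p = 0.205), Cyp51 -0.30 (adjusted p = 0.159) and Sqle, the squalene epoxidase, -0.17 (adjusted p = 0.0856). Hsd17b7 and Sc5d had positive changes, 0.24 (adjusted p = 0.617) and 0.21 (adjusted p = 0.180). Their directions were not shared by all bright probe sets, the others having -0.06 and 0.06 for Hsd17b7 and -0.10 for Sc5d. The sterol enzymes differed between the sets, with a median change of -0.21 in replicates 1 and 2 and of -0.40 in replicates 3 and 4, and 13 of 17 were negative in both. Tm7sf2 (-0.12 over all arrays) had -0.44 in replicates 1 and 2 and 0.20 in replicates 3 and 4. Pmvk (-0.03 over all arrays) had 0.10 and -0.15.

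The Srebp genes did not pass in the mutant. Srebf1 had 7.88, 8.13, 7.78 and 7.93 in controls and 8.14, 8.09, 8.64 and 8.74 in mutants, a change of 0.47 (limma adjusted p = 0.112). Mutants 3 and 4 were above all controls, mutant 1 was so by a narrow margin, and mutant 2 was not. Srebf2, the main factor of the sterol branch, had 9.62, 9.69, 9.50 and 9.60 in controls and 9.56, 9.41, 9.69 and 9.50 in mutants, with full overlap (change -0.06, adjusted p = 0.648). Its second probe set had -0.30 and did not pass. Scap stood at 10.10, 10.14, 10.17 and 10.08 in controls and 10.10, 10.15, 10.21 and 10.12 in mutants (change 0.02, adjusted p = 0.847).

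Of the retention proteins, Insig1, itself a Srebp target, had 11.99, 11.87, 11.69 and 11.76 in controls and 11.78, 11.72, 11.19 and 11.38 in mutants (change -0.31, limma adjusted p = 0.198). Its mutants 3 and 4 were below every control, and the others were not. Insig2 stood at 10.26, 10.14, 10.17 and 10.17 in controls and 10.21, 10.25, 10.15 and 10.19 in mutants (change 0.01, adjusted p = 0.901). The arrays of Insig2 differed by about as much within a group as between groups. Stard4, which carries sterols between membranes, had -0.28 (adjusted p = 0.0575), without overlap, and 1 of its 3 probe sets passed as lower (-0.43).

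Among the other fatty acid genes the mutant gave no call. Acly, which supplies acetyl-CoA from citrate, had -0.18 (limma adjusted p = 0.0705) without overlap, Acaca, the first committed enzyme, -0.05, and Elovl6 -0.12. The other bright Acly probe sets had smaller changes (-0.06 and -0.05) and did not pass. The desaturases had positive changes, Scd1 0.33, Scd2 0.17, Fads1 0.17 and Fads2 0.13 (adjusted p from 0.224 to 0.576). The direction was not shared by all their probe sets, the dimmest that passed the filter having -0.17 for Scd1, -0.14 for Scd2, -0.002 for Fads1 and -0.17 for Fads2. The positive values came mostly from replicates 3 and 4, where Scd1 had 0.64, Scd2 0.40, Fads1 0.32 and Fads2 0.41, against 0.01, -0.05, 0.02 and -0.16 in replicates 1 and 2.

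With ICRF-193 none of the 17 sterol enzymes was called, and 2 of the 31 genes rose and 0 fell, beside 3.16% of all genes higher and 3.48% lower. At an unadjusted p under 0.05 limma gave 4 higher and 1 lower, beside 10.2% and 9.14% of all genes. The 2 genes, Fads1 and Scd2, are fatty acid desaturases. The sterol enzymes had a median change of -0.09, with values from -0.21 (Mvk) to 0.20 (Idi1), and all genes one of 0.01. The second probe sets of Mvk and Idi1 had the other sign (0.11 and -0.06). The 8 fatty acid genes had a median of 0.22, and for 4 of them (Acly, Scd2, Fads1 and Fads2) all treated arrays lay above all DMSO arrays, as for 7.63% of all genes. None of the 31 lay wholly below (6.64% of all genes), and 17 had a negative change (47.9%). Among the markers, the neuronal Rbfox3 (-1.02) and the progenitor gene Atoh1 (-0.90) fell in the granule lineage list (2 of 7), Cnp fell among 8 oligodendrocyte genes (-0.97), and 0 of 8 astrocyte genes passed. Of 4 Purkinje cell and interneuron markers above the filter 1 fell and 0 rose. The part of these marker changes in the result was not tested.

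Fads1, which makes a double bond in long polyunsaturated chains, had 11.66, 11.67, 11.45 and 11.58 in DMSO replicates 1 to 4 and 12.07, 11.95, 11.88 and 12.03 with ICRF-193. Every treated array was above every DMSO array. It rose by 0.39 (SE 0.08, n = 4, limma adjusted p = 0.0209, with the block 0.0221), and the call was lost without ICRF-193 replicate 1, 2 or 4 or DMSO replicate 3 (adjusted p up to 0.0648). The dimmer Fads1 probe set had 0.38 and did not pass.

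Scd2, the stearoyl-CoA desaturase of the brain, had 13.36, 13.32, 13.26 and 13.27 with DMSO and 13.55, 13.62, 13.58 and 13.66 with ICRF-193. Both groups were tight and apart. It rose by 0.30 (SE 0.06, n = 4, limma adjusted p = 0.0262, with the block 0.0505), and only ICRF-193 replicate 1 could be left out without losing the call (adjusted p up to 0.0797). Scd2 had 0.24 and 0.28 on its dimmer probe sets, which did not pass. Its neighbours in function, Fads2 (0.26, adjusted p = 0.127) and Acly (0.25, adjusted p = 0.111), did not pass. Of the 3 bright Acly probe sets, which had changes from 0.25 to 0.35, 1 of the dimmer ones passed (0.34, adjusted p = 0.0352 over all probe sets). With each array centred on its median 0 of the 31 genes passed, beside 2.24% of all genes lower and 1.61% higher. With the set of replicates as a block the 2 genes passed and Insig1 fell (5.69% of all genes lower and 6.03% higher), and with each set averaged to 1 sample 0 of the 31 passed (1.67% and 1.24%).

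The Srebp genes did not pass with ICRF-193 either. Srebf1 had 8.09, 8.33, 8.24 and 7.80 with DMSO and 8.03, 7.94, 7.72 and 7.49 with the inhibitor, overlapping at DMSO 4 (change -0.32, limma adjusted p = 0.298). Srebf2 stood at 9.72, 9.54, 9.87 and 9.95 against 9.68, 9.53, 9.47 and 9.89 (change -0.13, adjusted p = 0.651). Both sets of values spread about as far within the groups as between them. Scap had 9.72, 10.05, 10.01 and 10.06 with DMSO and 9.98, 9.99, 10.21 and 10.23 with ICRF-193 (change 0.14, adjusted p = 0.521), where DMSO 1 lay apart from the other DMSO arrays.

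Insig1 had 12.38, 12.31, 12.04 and 11.98 with DMSO and 12.06, 12.12, 11.79 and 11.72 with ICRF-193 (change -0.26, limma adjusted p = 0.335). Within replicates 1 and 2 and within replicates 3 and 4 the treated arrays were the lower ones, with a change of -0.26 in both. Insig2 had 9.97, 9.93, 9.86 and 9.88 against 9.91, 9.92, 9.98 and 9.96 (change 0.03, adjusted p = 0.843). Stard4 had a change of -0.35 (adjusted p = 0.227). It passed as lower with all 22 arrays in 1 fit and with the replicate block (adjusted p = 0.0266). With the block it was the 1 gene of the 31 that fell and Fads1 the 1 that rose, beside 4.5% and 4.28% of all genes.

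**Figure D4:**
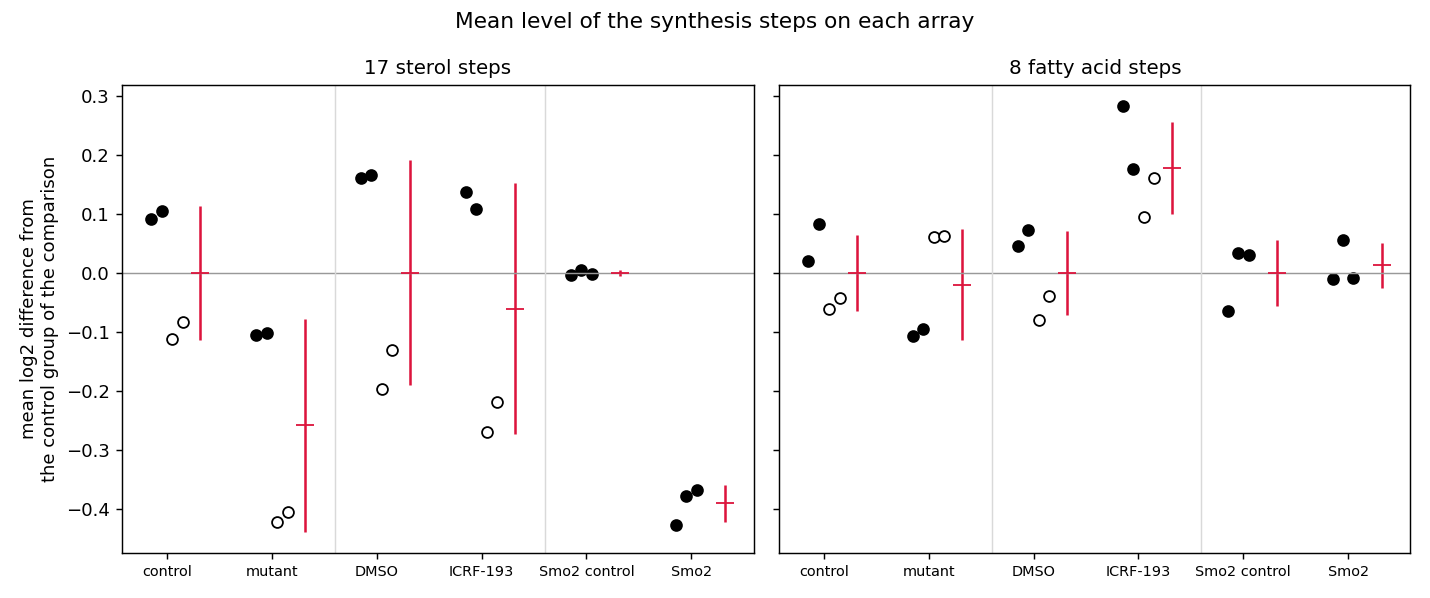
Mean log2 difference from the control group's mean over the 17 sterol enzymes (left) and the 8 fatty acid genes (right) on each array, and in red the mean (dash) with its SD (bar, n = 4, or 3 for Smo2). In the first 4 groups filled circles are replicates 1 and 2 and open circles replicates 3 and 4, which were lower for sterol enzymes in each group. Mutants 3 and 4 stood at -0.42 and -0.41 and the Smo2 arrays between -0.43 and -0.37.

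Averaged over the 17 sterol enzymes, control arrays 1 to 4 of the Chd7 experiment stood at 0.09, 0.10, -0.11 and -0.08 relative to their mean, and the mutants at -0.10, -0.10, -0.42 and -0.41. Mutants 1 and 2 were thus at the level of controls 3 and 4. The DMSO arrays showed the same split, with 0.16, 0.17, -0.20 and -0.13, and so did the ICRF-193 arrays, with 0.14, 0.11, -0.27 and -0.22. What separates replicates 1 and 2 from 3 and 4 is not given in the labels. The Y-linked signal above was also lower in replicates 3 and 4 of each of these 4 groups, and its part in the split was not tested.

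In cells cultured with Smo2, 17 of the 31 genes fell and 3 rose, in a comparison where 39% of all genes fell and 29.7% rose. The 3 that rose were Srebf1, Scd1 and Fads2. The groups did not overlap for 19 genes that were lower and 5 that were higher (41.6% and 31.9% of all genes), and 23 had a negative change (56%). With the replicate number as a block the counts were again 17 and 3, beside 37.7% and 28.6%. Of the 17 sterol enzymes 12 fell and 0 rose, with a median change of -0.39 against -0.09 for all genes. With each array centred on its median the median of all genes moved to 0.05 and that of the sterol enzymes to -0.19, and then 8 sterol enzymes were lower and 3 higher (Fdps, Ebp and Sc5d), beside 29.9% and 37.6% of all genes. Markers of dividing cells rose for 7 of 7 genes (median 3.09, summed signal 66048 to 66137 against 8343 to 8523), and 6 of 7 granule lineage markers fell while Atoh1, the marker of progenitors, rose by 1.74. Of the astrocyte markers 6 of 8 fell and 2 rose. All 5 microglia markers above the filter fell (summed signal of 8 markers from 570.2 to 847.6 against 1237 to 1742). So did all 4 Purkinje cell and interneuron markers above it (summed signal of 6 markers from 1704 to 1844 against 3803 to 3895). Of 8 oligodendrocyte markers 3 fell and 3 rose, and of 6 fibroblast, pericyte and endothelium markers 0 fell and 1 rose. The part of division and of other cells in the Smo2 results was not tested.

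Srebf1 had log2 signals of 7.96, 7.97 and 8.18 in the 3 control arrays and of 10.96, 10.95 and 11.01 with Smo2. The treated arrays lay close together and far above the controls. It rose by 2.94 (SE 0.08, n = 3, limma adjusted p = 2.01e-06), a 7.65-fold increase, and 112 of the 10771 genes had a more positive change. The gene has 1 probe set here, so its isoforms cannot be told apart.

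Its partner Srebf2 had 10.07, 10.19 and 10.25 in controls and 10.03, 10.24 and 10.09 with Smo2 (change -0.05, limma adjusted p = 0.594, or 0.12 with median centring). The second of its 2 probe sets had -0.33 and passed. Scap had 10.25, 9.99 and 10.27 in controls and 9.94, 9.88 and 9.77 with Smo2, just without overlap, and fell by 0.31 (adjusted p = 0.0276), a call lost without control 1 or 3 or Smo2 replicate 2 or 3, and with median centring.

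Insig2 had 9.86, 9.83 and 9.75 in controls and 9.40, 9.45 and 9.33 with Smo2. All 3 of its probe sets passed, and the brightest fell by 0.42 (SE 0.06, n = 3, limma adjusted p = 0.00107). Insig1 stood at 12.22, 12.27 and 12.24 against 12.11, 12.17 and 12.16 (change -0.10, adjusted p = 0.113), and with median centring its change was 0.14 and passed as higher (adjusted p = 0.0469). Stard4 had -0.09 (adjusted p = 0.206, with centring 0.12), while 2 of its 3 probe sets passed as higher, so its direction is unsettled.

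**Figure D5:**
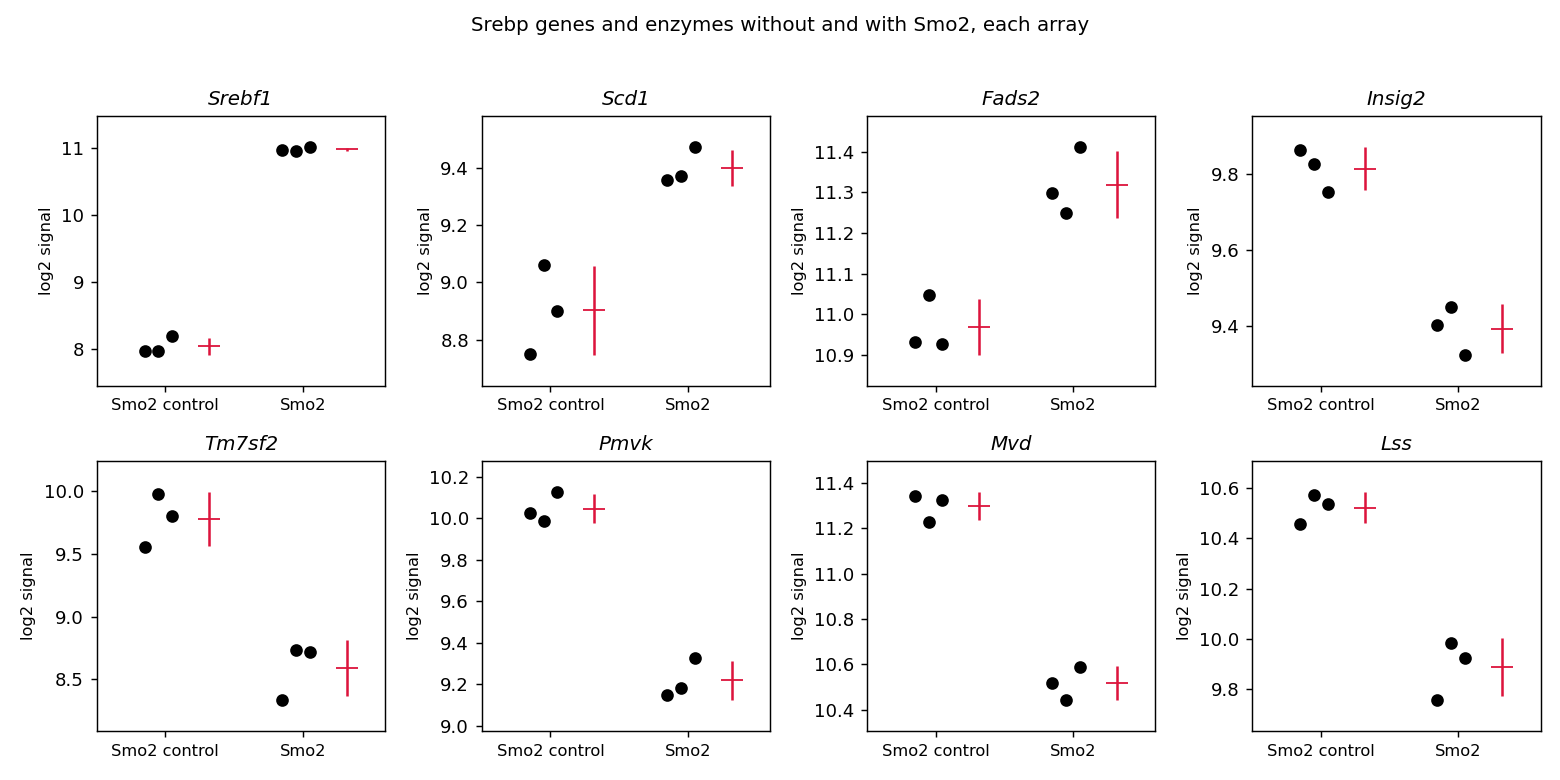
Log2 signal of 8 genes on each of the 3 control and 3 Smo2 arrays, and in red the mean (dash) with its SD (bar). Srebf1, Scd1 and Fads2 are higher and Insig2, Tm7sf2, Pmvk, Mvd and Lss lower with Smo2, without overlap. The y axes differ between panels, and that of Srebf1 spans the widest range.

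Among the sterol enzymes Tm7sf2, the reductase that acts after lanosterol demethylation, had 9.55, 9.98 and 9.80 in controls and 8.34, 8.73 and 8.72 with Smo2. It had the most negative change of the 31 genes, -1.18 ± 0.15 (SE, n = 3, limma adjusted p = 0.000645), a 2.27-fold decrease. Pmvk, which adds the second phosphate to mevalonate, had 10.03, 9.99 and 10.12 against 9.15, 9.18 and 9.32. Its groups were well apart, and it fell by 0.83 (SE 0.07, adjusted p = 0.000113).

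Mvd had 11.34, 11.23 and 11.32 in controls and 10.52, 10.44 and 10.59 with Smo2, a change of -0.78 ± 0.06 (SE, n = 3, limma adjusted p = 9.12e-05). Both of its probe sets passed. Lss, which closes squalene epoxide to lanosterol, had 10.46, 10.57 and 10.54 against 9.76, 9.98 and 9.93 (change -0.63, adjusted p = 0.000497), but its second probe set had 0.16 and did not pass. The promoters of these genes are among those printed above.

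The other called sterol enzymes fell by 0.28 to 0.56. They were Hmgcs1 (-0.56, limma adjusted p = 0.000129, with all 5 probe sets lower), Dhcr7 (-0.51, adjusted p = 0.0110), Fdft1 (-0.50, adjusted p = 0.000238) and Nsdhl (-0.48, adjusted p = 0.000249). Sqle (-0.39, adjusted p = 0.00151), Mvk (-0.34, adjusted p = 0.0116), Hsd17b7 (-0.31, adjusted p = 0.00429) and Cyp51 (-0.28, adjusted p = 0.00455) fell less, and these 4 lost their calls with median centring. With all 22 arrays in 1 fit Dhcr7 (adjusted p = 0.0591), Mvk, Cyp51 and Hsd17b7 lost theirs. Idi1, Fdps, Msmo1, Ebp and Sc5d were not called, with changes from -0.11 to 0.19, although 1 of 2 Sc5d probe sets passed as lower (-0.23). With median centring the changes of Idi1 (0.22) and Msmo1 (0.12) were positive.

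The fatty acid genes moved both ways with Smo2. Scd1 had 8.75, 9.06 and 8.90 in controls and 9.36, 9.37 and 9.47 with Smo2, and rose by 0.50 (SE 0.09, n = 3, limma adjusted p = 0.00311). Its second probe set had a change of -0.003, so the rise rests on the brighter one, and with all 22 arrays in 1 fit it did not pass (adjusted p = 0.0674). Fads2, the first desaturase of the polyunsaturated pathway, had 10.93, 11.05 and 10.93 against 11.30, 11.25 and 11.41 (change 0.35, adjusted p = 0.00399).

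In the other direction Fasn fell by 0.46 (SE 0.05, limma adjusted p = 0.000496), Fads1 by 0.42 (adjusted p = 0.0012) and Acly by 0.23 (adjusted p = 0.0108, with a change of 0.01 under median centring). Both probe sets of Fads1 passed as lower. Scd2 (0.14, adjusted p = 0.0573), Acaca (0.25, adjusted p = 0.325) and Elovl6 (-0.03, adjusted p = 0.745, with centring 0.18) did not pass. However, 2 of the 3 Scd2 probe sets, the dimmer ones, passed as higher (0.24 and 0.25). With median centring Scd2 also passed as higher (0.40, limma adjusted p = 0.000565). Fads1 and Fads2, neighbours in the pathway, thus had called changes of opposite sign.

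The effects were then set against each other by contrasts of limma over all 22 arrays. The signal of Chd7 itself was also lower with ICRF-193, by -1.35 and -1.28 on its brighter and dimmer probe sets. With Smo2 the changes were -0.67 and -0.72, and both probe sets passed in both comparisons. The part of these changes in the contrasts was not tested. The mutant effect was below the ICRF-193 effect for 3 of the 31 genes and above it for 1 (3.99% and 5.07% of all genes). Fasn had -0.60 in the mutant and 0.07 with the inhibitor (difference -0.67, limma adjusted p = 0.000107), Acly -0.18 and 0.25 (difference -0.43, adjusted p = 0.00141), and Idi1 -0.74 and 0.20 (difference -0.94, adjusted p = 0.0246). Srebf1 had 0.47 and -0.32 (difference 0.79, adjusted p = 0.0223). For the other called genes of the mutant the difference from ICRF-193 did not pass in this fit, Mvd coming closest (-0.48, adjusted p = 0.0676). With the replicate block 6 genes were lower and 1 higher (5.78% and 7.46% of all genes), with Mvd (adjusted p = 0.00211), Nsdhl (-0.31, adjusted p = 0.0322) and Fdft1 (-0.44, adjusted p = 0.00448) added, and with trended and robust moderation Mvd (adjusted p = 0.0458) and Hmgcs1 (-0.26, adjusted p = 0.0398) passed.

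Against Smo2 the mutant effect was lower for 1 gene, Srebf1 (difference -2.47, limma adjusted p = 8.03e-08), and higher for 5 (20.4% and 27.2% of all genes). The 5 were Tm7sf2 (difference 1.06), Pmvk (0.80), Fads1 (0.58), Insig2 (0.43) and Scap (0.33), with adjusted p from 7.23e-05 to 0.0393. For Hmgcs1, Mvd, Nsdhl, Dhcr7 and Fasn, which fell in both comparisons, no difference between the effects passed in this fit. In the fit with the replicate block 9 genes were higher and 4 lower (30.6% and 22.4% of all genes), and of those 5 genes Mvd passed (difference 0.27, adjusted p = 0.0156). The ICRF-193 effect was lower than that of Smo2 for Srebf1 (-3.26, adjusted p = 2.22e-09) and higher for 12 genes (22.8% and 27.9% of all genes), among them Tm7sf2 (1.17), Pmvk (0.95), Fads1 (0.81) and Mvd (0.75). With median centring 1 of the 5 and 2 of the 12 remained (13.2% and 14.4% of all genes higher).

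Other genes of lipid metabolism were read from lists by role, and their counts stand beside the shares of all genes called in each comparison (5.07% higher and 3.83% lower in the mutant, 3.16% and 3.48% with ICRF-193, 29.7% and 39% with Smo2). Of 13 measured genes of sterol efflux, turnover and the Lxr receptors, 2 rose in the mutant, the sterol exporter Abcg1 (0.92, limma adjusted p = 0.0238) and Npc2, which moves cholesterol out of lysosomes (0.27, adjusted p = 0.0439), and 0 fell. With ICRF-193 0 passed in either direction, with a median of -0.09. With Smo2 8 fell and 2 rose, with a median of -0.29. The exporters Abcg1 (-1.03), Abca1 (-0.81) and Abcg4 (-0.76) and the lysosomal Npc1 (-0.85) were among those that fell, and Scarb1, a lipoprotein receptor, rose by 1.28.

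Of 12 genes of the isoprenoid branch, which uses the pathway's intermediates to make prenyl groups, dolichol and ubiquinone, 0 passed in the mutant or with ICRF-193 (medians 0.07 and 0.04). With Smo2 3 rose and 2 fell, with Icmt, which methylates prenylated proteins, at 1.62 (limma adjusted p = 1.16e-05). Of 8 other genes of sterol synthesis and Srebp processing, Cyb5r3 rose in the mutant (0.28), Ube2g2 fell with ICRF-193 (-0.45), and with Smo2 3 rose and 3 fell, among them the site-1 protease Mbtps1 (0.20) and the site-2 protease Mbtps2 (-0.31), which release Srebp.

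Of 31 other fatty acid and acyl-CoA genes 6 rose and 0 fell in the mutant, led by Me1, the malic enzyme that supplies NADPH (0.68, limma adjusted p = 0.000953), while with ICRF-193 only Acsl6 passed (0.41, adjusted p = 0.0163). With Smo2 17 fell and 8 rose, where 39% of all genes fell and 29.7% rose. The desaturase relative Fads3 (-1.35), the lipogenic regulator Thrsp (-0.90) and the carnitine transferase Cpt1a (-0.73) were lower, and the elongases Elovl2 (0.74), Elovl5 (0.59) and Elovl1 (0.55) were higher.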

How the data were processed

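Total RNA of 22 samples was hybridised to Affymetrix Mouse Genome 430 2.0 arrays, 1 sample per array, and the samples were placed in 6 groups from their labels. The deposited values were linear signal intensities that the authors had scaled as a whole (the mean after trimming 2% at each end was 500 on every array). The labels and methods do not name the summarisation software. The p-values measure the spread between these arrays, which the labels call biological replicates without naming the culture or animal, and their number limits the precision.

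Values below 16 were set to 16, log2 transformed and quantile normalized, because array medians ranged from 6.33 to 6.81. Of 45101 probe sets 34958 had 1 gene symbol, 932 several and 9211 none, and only the first kind was named. Each gene was read from its brightest probe set, and genes under a mean of 6.44, the median of all probe sets, were left out. Each pair of groups was tested with limma 3.58.1 in R 4.3.3 (lmFit and eBayes, two-sided, Benjamini-Hochberg over 10771 genes), and differences between effects by contrasts over all arrays. No p-value was adjusted over the listed genes alone. A probe set that ends in _x_at or _s_at (the brightest of Hmgcs1, Fdft1, Hsd17b7, Acly and Mvd) can match other transcripts. The procedure was tested on simulated data, and 0 of 231 array pairs were identical.

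The listed genes, other gene lists and markers were chosen with earlier results of these data known. Values on every array were given for the called genes with the 4 largest changes in each direction of each comparison, and for Srebf1, Srebf2, Insig1, Insig2 and Scap. Idi1 and Hmgcs1 in the mutant were added after their values were seen. Same-numbered arrays deviated together in the Chd7 (r from 0.39 to 0.42 across genes) and ICRF-193 (0.28 to 0.41) experiments and not in the Smo2 experiment (-0.01 to 0.03), so the replicate number, which the labels give, was added as a block in an alternative. Arrays of the same set with another number deviated together as much (0.38 to 0.44 and 0.30 to 0.35), so these values do not tell the number from the set. Other alternatives changed the floor, normalization, filter, choice of probe set, moderation, arrays in the fit and single arrays left out. Promoter sequences are those of RefSeq for GRCm38.p6.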

Additional observations from a re-analysis of the deposited data

Results flagged for a closer look

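In each group of 4 arrays the distance of the highest or lowest array from its nearest neighbour was divided by the range of the group, and this share exceeded the critical value of Dixon's test for 4 values in 2 of 124 groups tested (1.61%, where chance gives about 5%). Scap had a share of 0.852 in the DMSO arrays, where DMSO 1 stood at 9.72 and the nearest array at 10.01. Fads1 had a share of 0.859 in the Chd7 mutant arrays, where mutant 2 stood at 11.52 and the nearest array at 11.70.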

How the results depend on the processing

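Counts of the 31 genes depended on the processing most in the Chd7 and ICRF-193 experiments, and the cause was not tested. In the mutant the 5 lower calls became 3 with each array centred on its median (5.11% of all genes lower) and 3 with no filter on dim genes (1.89%). They became 9 with a trended and robust moderation (4.99%) and 11 by the methods' t-test at an unadjusted p (12%). With the set of replicates as a block there were 16 (9.38%) and from replicates 3 and 4 alone 11 (5.28%). When each set was averaged to 1 sample there were 0 (0%). The 0 higher calls became 1 with all 22 arrays in 1 fit (7.59% of all genes higher) and 1 by the unadjusted t-test (13.4%). From replicates 1 and 2 there was 1 (5.92%), and from replicates 3 and 4 there were 5 (8.67%). Leaving out 1 array gave 2 to 4 lower calls (2% to 2.97% of all genes), with 2 without mutant 3 or 4 or control 1 or 2, and 3 without control 3 or 4.

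For ICRF-193 the 2 higher calls became 0 with centring (1.61% of all genes higher). With the mean of all probe sets Fads1 and Scd2 were both lost and 1 other gene, Acly, passed (3.28%). The 2 became 4 by the unadjusted t-test (10.3%), 0 from either set of replicates alone (1.14% and 0.771%) and 0 with set means (1.24%). Without any 1 array there were 0 to 1 (2.01% to 2.62%), with 0 without ICRF-193 replicate 2 or 4 or DMSO replicate 3. The 0 lower calls became 1 with all 22 arrays in 1 fit (5.59% of all genes lower) and 1 with the set as a block (5.69%). With the replicate number as a block ICRF-193 gave 1 lower and 1 higher call and the mutant 7 lower and 0 higher, while with Smo2 it left 17 lower and 3 higher.

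For Smo2 centring gave 11 lower and 8 higher calls (29.9% and 37.6% of all genes). The 3 higher calls became 5 without quantile normalization, with a filter at 8, with the mean of all probe sets and with trended and robust moderation. They also became 5 by the methods' t-test, both unadjusted and after Benjamini-Hochberg. In these settings 27.6% to 31.5% of all genes were higher. With all 22 arrays in 1 fit 13 were lower and 2 higher (35.3% and 27.4% of all genes). Leaving out 1 array gave 16 to 17 lower calls (35.8% to 36.4%) and 3 to 4 higher ones (27.4% to 28.4%).

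Of the differences between effects, the 3 genes lower in the mutant than with ICRF-193 became 1 with centring (1.87% of all genes lower). Fasn remained, and Acly and Idi1 were lost. The 3 became 5 with robust moderation (4.19%) and 6 with the replicate block (5.78%). For the mutant against Smo2 the 1 lower became 2 without quantile normalization (19.5% of all genes lower), 2 with centring (26.4%) and 2 with a filter at 8 (22%). It became 4 with the mean of probe sets (21.1%) and 4 with the replicate block (22.4%). The 5 higher became 1 with centring (13.2% of all genes higher), 3 with no filter (15.6%) and 9 with the replicate block (30.6%). For ICRF-193 against Smo2 the 12 higher became 2 with centring (14.4% of all genes higher). The 1 lower became 2 with the mean of probe sets (22.9% of all genes lower) and 4 with the replicate block (24.8%).

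Signs turned for small changes. In the mutant, centring gave -0.057 for Scap and -0.064 for Insig2. Without 1 array Scap ranged from -4.94e-05 (without mutant 3) to 0.0381 (without control 3), and Insig2 from -0.0029 (without mutant 2, with -0.0015 without control 2) to 0.0398 (without control 1). From replicates 3 and 4 alone Insig2 had -0.0013 and Srebf2 0.042. With ICRF-193 Insig2 had -0.018 with centring and -0.035 from replicates 1 and 2. With Smo2 and centring Srebf2 had 0.12, Insig1 0.14 (passing as higher) and Acly 0.0088, and among other genes not called Idi1, Msmo1, Stard4 and Elovl6 turned positive.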
